A study of Mus musculus with 2 samples.

Results

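Transcripts of 10 genes for heterogeneous nuclear ribonucleoproteins (hnRNPs) were examined in nucleoplasmic RNA of activated mouse macrophages: Hnrnpa1, Hnrnpa2b1, Hnrnpa3, Hnrnpc, Hnrnpd, Hnrnpdl, Hnrnph1, Hnrnpk, Hnrnpl and Hnrnpu. The genes were chosen by symbol, 10 of 55450 annotated genes, and the annotation gave them 130 of 141864 transcripts. For each gene, the level was divided among transcripts annotated as protein-coding, as targets of nonsense-mediated decay and as retaining an intron. The choice was made by symbol and not by a measured value, but with earlier results of these data known. All 10 genes passed the filter of 1 TPM (transcript abundance per length, scaled to the same total in each library) in both libraries.

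The study sequenced total RNA, after depletion of ribosomal RNA, from macrophages of C57BL/6J mice that had been grown from bone marrow. They had been exposed for 90 min to 100 ng/ml of lipid A, the membrane anchor of bacterial lipopolysaccharide and the moiety sensed by TLR4. There was 1 group with 2 biological replicates, and because both replicates carry 1 donor entry, their spread may be technical. The libraries started from 1 µg of RNA in replicate 1 and 500 ng in replicate 2. The age and sex of the mice were not collected, and no untreated, cytoplasmic or whole-cell library was analysed here. With 1 group there is no contrast between conditions, so no test was run. In bulk RNA, fewer cells of a type and less RNA per cell cannot be told apart.

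hnRNPs are abundant nuclear proteins that coat nascent RNA and steer its splicing, export and decay. Many of them bind the transcripts of their own genes, where an alternative splice choice can bring in an early stop codon or leave an intron in place. Nonsense-mediated decay removes transcripts with such stop codons during translation in the cytoplasm, whereas transcripts that keep introns are often held in the nucleus.

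Replicate 1 held 30881427 estimated counts and replicate 2 held 27674626, and the 10 genes took 0.172% and 0.169% of them. At 1 TPM or more in both libraries, 9738 protein-coding genes were measured. Features with an effective length under 200 bases took 77.9% of TPM in replicate 1 and 65.8% in replicate 2. The median protein-coding gene stood at 5.90 TPM in replicate 1 and 7.62 in replicate 2. Ratios between replicates are therefore given relative to that shift, which was 0.34 on the log2 scale. The cells matched their label. The 8 macrophage markers lay between 10.6 and 576 TPM, the 3 B cell markers at or below 1.03 TPM and the 4 neutrophil markers at or below 0.826 TPM. Among other cell types, the highest markers were Pecam1 at 3.53 and 13.4 TPM and Cd3d at 3.01 and 13.1 TPM in replicates 1 and 2. The nuclear RNA Malat1 stood at 11150 and 23651 TPM. The deposited tables gave a second quantification of the same libraries, made from an alignment, which is called alignment-based below. The values without that name come from the quantification made directly from the reads.

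Most transcripts annotated as retained intron run across the edge of an exon of the coding transcripts into the intron. Exceptions with a high level are Hnrnpc-212, which holds no such intron sequence, and Hnrnpk-215, which holds 33 bases. The 8 sites below were chosen among those whose intron begins with GT, the usual first bases of an intron. They lie within the coding region of the gene and show where exon and intron meet in the transcripts named. Those of Hnrnph1 are annotated as processed transcript and not as retained intron. Each run has 10 exon bases and 20 intron bases, read from the transcript's own sequence in GENCODE M21 and given for mm10, with the first 6 intron bases in capitals.
Hnrnpk-204 (chr13:58399136-58399165, minus strand): ccgtacagacGTAAGTattaaactactgaa
Hnrnpl-206 (chr7:28815343-28815372, plus strand): agtggacaagGTAATCctgatggctacttt
Hnrnpu-202 (chr1:178335862-178335891, minus strand): cttgatacttGTAAGTgaggcggactttcc
Hnrnpa2b1-213 (chr6:51466283-51466312, minus strand): ggaagaggagGTAATGttatttatttatgt
Hnrnpdl-204 (chr5:100036461-100036490, minus strand): gactacagcgGTAAGAacacttaactcaat
Hnrnpc-208 (chr14:52084095-52084124, minus strand): caggttttagGTGAGTttgtttgtttgttt
Hnrnph1-204 (chr11:50379955-50379984, plus strand): ttcttctcagGTATGTagtcctgtttgttg
Hnrnph1-207 (chr11:50379614-50379643, plus strand): tatgttgaagGTTTGAtttacattgcccta
In each, the annotated transcript reads from exon into intron without splicing. Not all edges are of this kind: the gaps between coding exons entered by Hnrnpl-208, Hnrnpk-211 and Hnrnpa2b1-211 do not begin with GT. Of the 19 distinct introns held whole, 18 begin with GT and end with AG. The shortest whole introns kept by a transcript of these genes have 78 bases, in Hnrnpk and Hnrnpa3, and that of Hnrnpa3 is shown in full in capitals with 10 exon bases on each side.
Hnrnpa3-205 (chr2:75661818-75661895, plus strand): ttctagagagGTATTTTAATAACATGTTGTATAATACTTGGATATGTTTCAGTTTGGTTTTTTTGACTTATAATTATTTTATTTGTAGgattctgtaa
Its GC content was 20.5%.

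The structure of the transcripts was set beside their annotated classes. Both come from the same annotation, so this is no independent check of the classes. Of the 34 transcripts classed as retained intron, 30 held at least 50 bases of an intron, and 14 held a whole intron of a coding transcript. All 17 nonsense-mediated-decay transcripts had their stop codon more than 50 bases before the last exon junction, at 52 to 1801 bases, which is the usual mark of a decay target. Of the 61 protein-coding transcripts, 1 did, Hnrnpa2b1-202 at 157 bases. The 18 transcripts classed as processed transcript, a class without a coding sequence, included 8 that ran into an intron. Retained-intron transcripts were shorter than coding ones, with a median of 734 against 1683 bases. Introns held whole by a transcript of another class, 19 of 149 distinct introns, had a median length of 207 bases against 576.5 for the others. A leading transcript is, in what follows, the one with the highest mean TPM of its class. Of 25 such transcripts over the 3 classes, 21 were also the highest of their class in each replicate from reads, and 15 were in each replicate by alignment. Among the 10 coding ones these counts were 7 and 4. The counts include Hnrnpa3-205, Hnrnpd-206, Hnrnpl-213 and the coding Hnrnpu-201. Each is the only transcript of its class in its gene, so it could not fail to lead.

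The 10 genes ranged from 20.8 TPM for Hnrnpa1 to 156 TPM for Hnrnpa2b1, with a median of 57.1 TPM against 6.86 TPM for the 9738 expressed protein-coding genes. They ranked between 172 and 2033 among those genes. Of 9 neighbouring pairs in the order of levels, 5 had ranges over the replicates that did not overlap: Hnrnpa2b1 above Hnrnpk, Hnrnph1 above Hnrnpu, Hnrnpl above Hnrnpa3, Hnrnpdl above Hnrnpd, and Hnrnpd above Hnrnpa1. The other 4 pairs overlapped. By alignment Hnrnpa3 was above Hnrnpl in both replicates, at 78.3 and 104 TPM against 49.4 and 72.8. Likewise Hnrnpa1 was above Hnrnpd by alignment, at 33.0 and 41.7 TPM against 26.5 and 29.3. Hnrnpa2b1, Hnrnpk and Hnrnph1 took the top 3 places in both replicates of both quantifications.

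**Figure D1:**
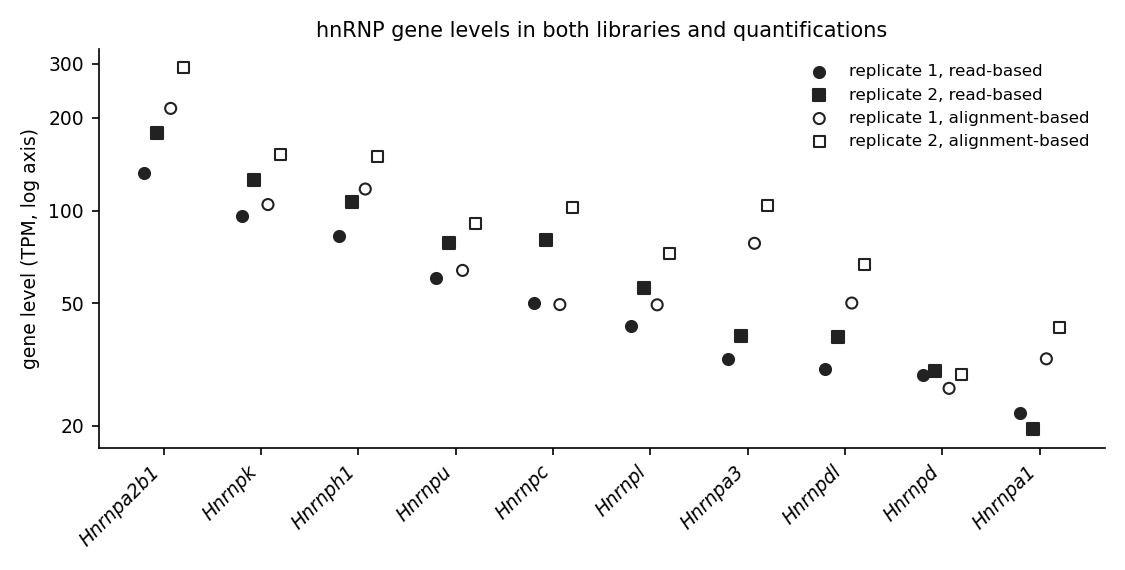
Gene level in TPM on a log axis for each hnRNP gene, in order of mean level. Filled marks are the quantification from reads and open marks the alignment-based one; circles are replicate 1 and squares replicate 2. Hnrnpa2b1 is highest at 133 and 178 TPM from reads, and Hnrnpa3 is the gene whose alignment-based levels, 78.3 and 104 TPM, lie farthest above those from reads.

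Transcript classes differed widely from gene to gene, with mean coding shares from 10.2% in Hnrnph1 to 78.5% in Hnrnpa3. Protein-coding transcripts made up less than 50% of the level in both replicates in 6 of the 10 genes, and the same held for 42.3% of 9732 expressed genes with a coding transcript. The median coding share over the 10, of which 2 have no retained-intron transcript, was 40.6%. Over 6182 expressed genes that have both a coding and a retained-intron transcript it was 41.7%, so these medians cover unlike sets. The median retained-intron share was 23.6% over the 8 genes that have such a transcript, against 39.9% over those 6182 genes. Retained-intron transcripts held 50% or more of the level in both replicates in 2 of the 8, Hnrnpa2b1 and Hnrnpl. The same held for 31% of the 6182 genes, so the count for the hnRNP genes was near the background. The order of the median shares was reversed for transcripts of any non-coding class that run at least 50 bases into an intron. Their median share was 31.8% over the 10 genes and 25.8% over the 9738 expressed genes. This way of counting was chosen after the data were seen. The median nonsense-mediated-decay share was 19.4% over the 7 genes with such a transcript, against 7.14% over 3032 genes. Hnrnpa1 and Hnrnph1 had no transcript of the retained-intron class.

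**Figure D2:**
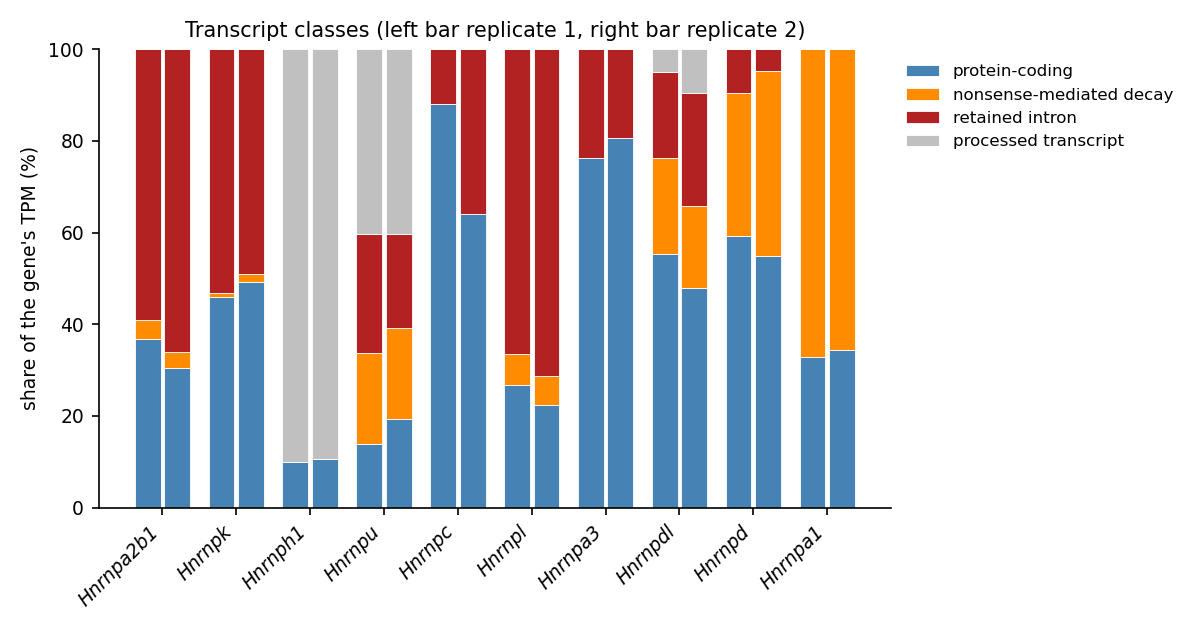
Share of each gene's TPM, in percent, by annotated transcript class, with replicate 1 in the left bar and replicate 2 in the right bar. Hnrnpa2b1 and Hnrnpl are mostly retained intron, Hnrnpa1 mostly nonsense-mediated decay (67.1% and 65.7%) and Hnrnph1 mostly processed transcript (90.2% and 89.5%), and Hnrnpc is the gene whose bars differ most.

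The A and B proteins bind short UAG-containing stretches, and hnRNP A1 is best known for blocking splice sites. Hnrnpa1 (chr15:103240432-103246692, plus strand) was the lowest of the 10 genes from reads, whereas Hnrnpd was the lowest by alignment. From reads Hnrnpa1 stood at 22.1 TPM in replicate 1 and 19.5 in replicate 2 (20.8 ± 1.84, SD, n = 2). Decay-class transcripts held 67.1% and 65.7% of this, higher than in 98.2% of the 3032 genes with such a transcript. The leading transcript was Hnrnpa1-204, at 8.24 and 10.3 TPM, whose stop codon lies 1801 bases before its last junction. By alignment Hnrnpa1-203 was the higher decay transcript, at 14.0 and 20.6 TPM against 11.7 and 16.6. The leading coding transcript, Hnrnpa1-202, stood at 7.19 and 6.46 TPM. Decay-class transcripts were thus the larger part in both replicates, and the alignment-based shares were 77.8% and 89.0%.

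Hnrnpa1 shared 29.3% of its 31-base words with other genes, most of them with the processed pseudogene Gm10052, a copy of a spliced transcript. Gm10052 stood at 6.06 TPM in replicate 1 and 16.6 in replicate 2, while Hnrnpa1 was lower in replicate 2. In the alignment-based tables the pseudogene had 1.40 and 4.46 TPM, and Hnrnpa1 had 33.0 and 41.7. The relative difference between replicates for Hnrnpa1 was −0.52 on the log2 scale from reads and −0.04 from alignment. How reads are divided between the gene and its copy differs between the quantifications, so the level of Hnrnpa1 is uncertain. Hnrnpa1-202 shared 54.7% of its words with other genes, Hnrnpa1-204 29.5% and Hnrnpa1-203 74.5%. Whether the division of reads also moves the class shares of Hnrnpa1 was not tested.

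Hnrnpa2b1 (chr6:51460932-51469894, minus strand) encodes A2 and B1, which bind and sort RNAs in the nucleus and cytoplasm. It was the highest of the 10 genes, at 133 and 178 TPM (156 ± 32.4, SD, n = 2), rank 172. Retained-intron transcripts held 59.2% and 66.1%, above 78.5% of the 6182 genes, and coding transcripts 36.7% and 30.4%. The leading decay transcript, Hnrnpa2b1-209, had 3.16 and 4.96 TPM. The replicates gave the same order of classes.

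The main source of the Hnrnpa2b1 retained-intron level was the 3′ end of the gene rather than the coding region. Hnrnpa2b1-208, which keeps a 156-base intron of the 3′ untranslated region, stood at 34.7 and 47.6 TPM and was the highest of all 130 transcripts. Hnrnpa2b1-211, with 704 intronic bases of the same region, stood at 23.2 and 40.0 TPM. Together they held 73.9% and 74.2% of the gene's retained-intron TPM. Hnrnpa2b1-213, which keeps 4 partly overlapping introns of the coding region, was lower at 11.7 and 16.4 TPM.

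The 3′ end also set the coding isoforms apart between replicates. Hnrnpa2b1-204, the leading coding transcript, had 13.4 TPM in replicate 1 and 31.9 in replicate 2, while Hnrnpa2b1-202 had 15.7 and 0.0529 TPM and was the highest coding transcript in replicate 1. The alignment-based values for Hnrnpa2b1-202 were 18.5 and 0 TPM, with the authors' deposited bounds of 10.8 to 21.8 and 0 to 8.77. Neither transcript has a 31-base word of its own, and whether this is a difference in the RNA or in the assignment of reads was not tested.

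B1 differs from A2 by a 36-base exon near the start of the coding region, which is shown because its inclusion can be read from the coding transcripts. The exon is in capitals, with 6 bases of each neighbouring exon, at chr6:51467391-51467426 on the minus strand.
Hnrnpa2b1-203: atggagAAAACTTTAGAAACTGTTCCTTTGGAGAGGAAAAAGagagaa
Of the TPM of the 5 coding transcripts that span the exon, the 1 that includes it took 14.0% in replicate 1 and 14.1% in replicate 2. The alignment-based shares were 12.8% and 12.9%. In contrast to the 3′ end isoforms, this choice of exon was nearly the same in both replicates.

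Hnrnpa3 (chr2:75659261-75669407, plus strand), a close relative of A1 and A2, stood at 32.9 and 39.0 TPM (36.0 ± 4.36, SD, n = 2). Its coding share was the highest of the 10 genes in replicate 2, at 80.7%, with 76.3% in replicate 1, and Hnrnpa3-203 led it at 9.73 and 11.8 TPM. Hnrnpa3-207 was near 0 from reads and had 22.6 and 31.2 TPM by alignment. The retained-intron share of 23.7% and 19.3% came from a single transcript, Hnrnpa3-205, with the 78-base intron shown above, at 7.79 and 7.53 TPM. Hnrnpa3 shared 28.1% of its 31-base words with other genes, led by the transcribed processed pseudogene Gm5641. That pseudogene stood at 25.7 and 30.4 TPM from reads but at 0.810 and 2.00 TPM by alignment, where Hnrnpa3 had 78.3 and 104 TPM and its retained-intron share was 11.5% and 8.74%. Level and share of Hnrnpa3 thus depended on the quantification.

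hnRNP C packages nascent transcripts and binds runs of U. Hnrnpc (chr14:52073377-52104028, minus strand) stood at 50.1 and 80.1 TPM (65.1 ± 21.2, SD, n = 2). Its relative difference between replicates in TPM, 0.34 on the log2 scale, was the highest of the 10, but counts scaled by TMM gave −0.17, not centred. Coding transcripts held 88.0% in replicate 1 and 64.0% in replicate 2, and the retained-intron share went from 12.0% to 36.0%. A shift of 10 points or more in this share occurred in 1 of the 8 hnRNP genes and in 23.3% of the 6182 genes.

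The shift came from 1 transcript. Hnrnpc-212 had 4.05 TPM in replicate 1 and 26.5 in replicate 2, and the alignment-based tables gave 3.53 TPM (deposited bounds 1.84 to 5.52) and 43.9 TPM (34.9 to 47.5). This transcript is annotated as retained intron but holds 0 bases between the coding exons of the gene, and 0.516% of its 31-base words are its own. Hnrnpc-208, which does run 246 bases into an intron, had 1.96 and 2.33 TPM. Counted by structure, on transcripts that run at least 50 bases into an intron, the share of Hnrnpc was 3.91% and 2.91%. The shift in the annotated class was thus not seen in transcripts that hold intron sequence. Hnrnpc-213 led the coding class by mean, at 12.0 and 14.7 TPM, with Hnrnpc-210 close to it at 12.9 and 12.5. By alignment Hnrnpc-210 was the higher in each replicate, at 23.5 and 24.9 TPM against 3.94 and 10.6.

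**Figure D3:**
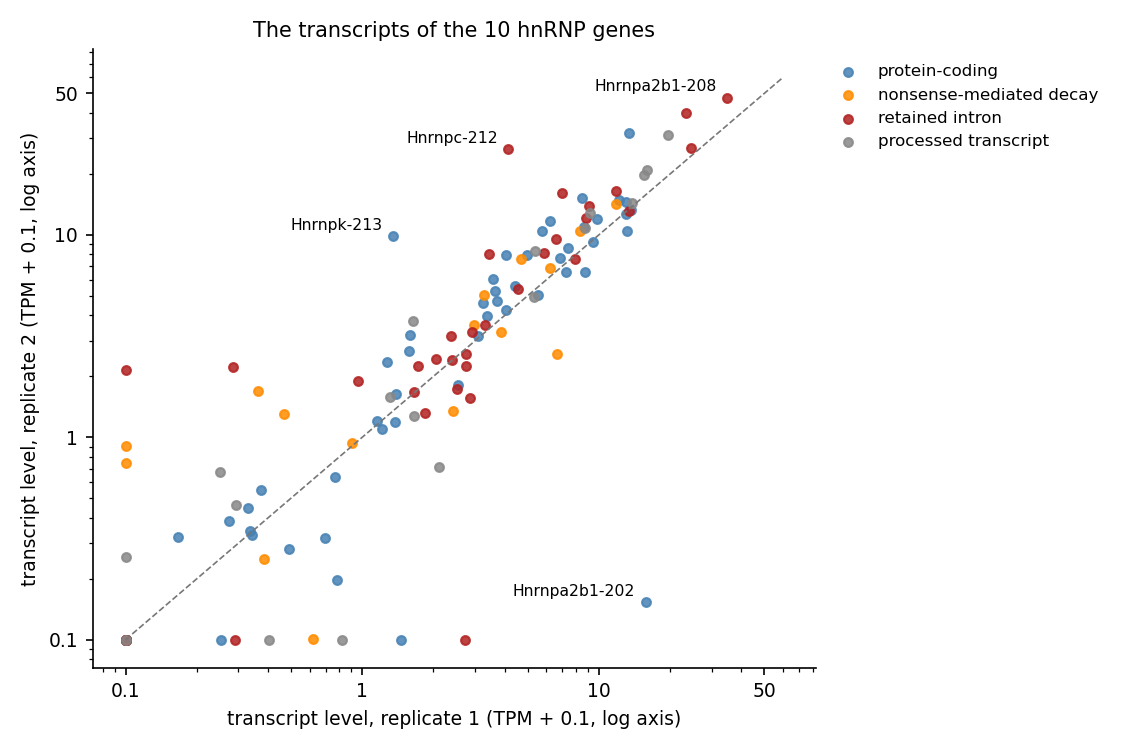
Level of each of the 130 transcripts in replicate 1 and replicate 2, in TPM + 0.1 on log axes, coloured by annotated class, with equal levels on the dashed line. Most transcripts lie along the line, and Hnrnpc-212 (4.05 and 26.5 TPM), Hnrnpk-213 (1.25 and 9.77 TPM) and Hnrnpa2b1-202 (15.7 and 0.0529 TPM) lie far from it.

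hnRNP K binds C-rich RNA and DNA through KH domains. Hnrnpk (chr13:58391142-58403343, minus strand) was second in level, at 96.2 and 126 TPM (111 ± 20.8, SD, n = 2), and had the most transcripts, 34. The retained-intron share was 53.1% and 49.1% and the coding share 45.9% and 49.3%, so the classes were nearly equal in replicate 2. By alignment the coding share was the larger, at 52.8% and 49.4% against 45.7% and 48.9%. The decay class held 0.923% and 1.61%, led by Hnrnpk-229 at 0.367 and 1.21 TPM. Hnrnpk-204 led the retained-intron class at 24.5 and 26.7 TPM and runs 430 bases past the splice site shown above. The leading coding transcript, Hnrnpk-221, was close to equal in the replicates from reads, at 13.5 and 13.1 TPM. By alignment it had 17.7 and 11.0 TPM, and Hnrnpk-210, at 11.1 and 20.9, was the highest coding transcript in replicate 2. In estimated counts, which are not divided by length, the retained-intron share of Hnrnpk was 28.5% and 27.0%. The gene shared 17.1% of its 31-base words with other genes, and the microRNA gene Mir7-1 lies within it on the same strand, with 27.3 and 97.8 TPM.

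hnRNP L binds CA-rich stretches and can silence or enhance exons. Hnrnpl (chr7:28808541-28822266, plus strand) stood at 42.3 and 56.0 TPM (49.2 ± 9.64, SD, n = 2) and had the highest retained-intron share of the 10 genes, 66.4% and 71.3%. Its coding share was 26.8% and 22.4%. No single transcript dominated: Hnrnpl-208 led from reads with 8.99 and 13.8 TPM, which is 32.0% and 34.5% of the retained-intron TPM. Hnrnpl-206 holds 1608 bases of a 3108-base intron and had 6.50 and 9.43 TPM, and Hnrnpl-205 holds 627 bases of the other end of this intron and had 5.76 and 8.06 TPM. The retained-intron class was the largest in each replicate. The share of estimated counts was 56.1% and 60.8%, and the alignment-based share of TPM was 68.8% and 71.0%. The leading coding transcript by mean was Hnrnpl-204 at 5.42 and 4.96 TPM, but Hnrnpl-202, at 3.47 and 5.96, was higher in replicate 2. By alignment Hnrnpl-204 had 0 and 1.07 TPM and Hnrnpl-202 had 9.79 and 14.2. The decay transcript Hnrnpl-213 had 2.87 and 3.50 TPM. An antisense gene, Gm44702, overlaps Hnrnpl, and whether the libraries kept strand is not given in the sources used here.

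**Figure D4:**
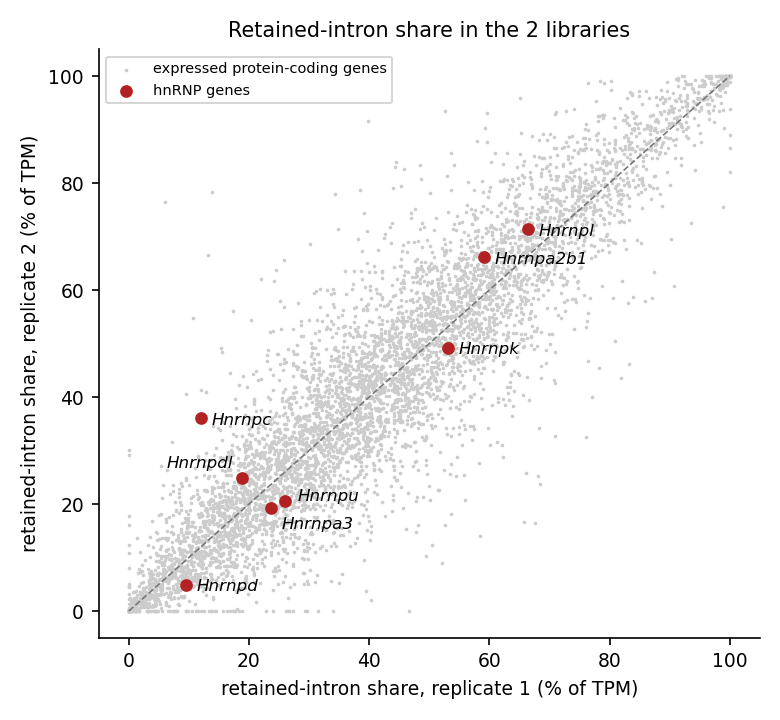
Retained-intron share of gene TPM, in percent, in replicate 1 and replicate 2 for 6182 expressed protein-coding genes (grey) and the 8 hnRNP genes with such a transcript (red), with equal shares on the dashed line. Hnrnpl and Hnrnpa2b1 lie above 50% in both replicates, and Hnrnpc (12.0% and 36.0%) lies farthest from the line among the hnRNP genes.

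hnRNP H1 binds runs of G and acts on nearby splice sites. Hnrnph1 (chr11:50376990-50386528, plus strand) was at rank 3 of the 10 genes at 82.4 and 106 TPM (94.4 ± 16.9, SD, n = 2). Coding transcripts held 9.84% and 10.5%, the lowest coding share of the 10 genes. Hnrnph1-202 led them at 4.88 and 7.85 TPM from reads but stood at 0 by alignment, where Hnrnph1-201 had 11.6 and 17.9 TPM. The other 90.2% and 89.5% was on transcripts annotated as processed transcript, which fall in none of the 3 classes. Hnrnph1-212 led with 19.4 and 31.2 TPM and holds no intron. Hnrnph1-204 (15.4 and 19.6 TPM) keeps 2 whole introns of 1494 and 939 bases, and Hnrnph1-207 (13.8 and 14.2 TPM) keeps a whole intron of 197 bases.

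Counted by structure, transcripts that run into an intron held 57.7% and 53.7% of the level of Hnrnph1. By this count 3 of the 10 genes, Hnrnpa2b1, Hnrnpl and Hnrnph1, had 50% or more in both replicates. The same held for 22.5% of the 9738 expressed protein-coding genes, so this count too was near the background. By alignment the share of Hnrnph1 on such transcripts was 54.7% and 49.0%, which is below 50% in replicate 2. The annotated class alone gives Hnrnph1 a share of 0. Hnrnpk, at 46.0% and 36.5% by structure, stayed below 50%. Transcripts that hold a whole intron took 51.1% and 45.4% in Hnrnph1, 35.1% and 35.8% in Hnrnpa2b1, and 5.71% and 6.01% in Hnrnpl. By that stricter count none of these genes had 50% or more in both replicates.

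hnRNP U, also called SAF-A, binds RNA and chromatin. Hnrnpu (chr1:178321108-178337797, minus strand) stood at 60.6 and 78.3 TPM (69.4 ± 12.5, SD, n = 2) and was spread over 4 classes. Coding transcripts held 13.9% and 19.2%, decay transcripts 19.8% and 20.0%, retained-intron transcripts 25.9% and 20.5% and processed transcripts 40.4% and 40.3%. Hnrnpu-203 led the processed transcripts with 15.8 and 20.8 TPM from reads, but it had 3.20 and 5.87 TPM by alignment. Hnrnpu-202 gave most of the retained-intron class, with 13.3 and 13.0 TPM, and Hnrnpu-206 led the decay class with 11.7 and 14.1 TPM. The single coding transcript, Hnrnpu-201, is 7640 bases long and had 8.42 and 15.0 TPM. It took 47.6% and 56.8% of the gene's estimated counts. The protein-coding gene Cox20 overlaps Hnrnpu on the other strand by 1586 bases and had 2.99 and 7.07 TPM. No 31-base word of Hnrnpu occurred in another gene.

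hnRNP D, also called AUF1, binds AU-rich elements and acts on messenger RNA decay, and the product of Hnrnpdl is its relative. Hnrnpd (chr5:99955935-99978938, minus strand) had nearly equal levels, 29.1 and 30.2 TPM (29.7 ± 0.714, SD, n = 2), which is −0.29 relative to other genes on the log2 scale. From reads the coding share was 59.2% and 54.8% and the decay share 31.3% and 40.3%, above 91.0% of the 3032 genes. By alignment the classes were nearly equal, with coding shares of 45.7% and 46.0% and decay shares of 45.6% and 48.8%. The leading decay transcript Hnrnpd-208 went from 4.57 to 7.46 TPM, and the leading coding transcript Hnrnpd-210 from 13.1 to 10.4 TPM. The retained-intron share was 9.49% and 4.83%, from Hnrnpd-206 at 2.77 and 1.46 TPM. The antisense gene Gm17092 overlaps Hnrnpd.

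Hnrnpdl (chr5:100033577-100039664, minus strand) stood at 30.6 and 38.8 TPM (34.7 ± 5.79, SD, n = 2). Coding transcripts held 55.3% and 47.9%, decay transcripts 21% and 17.9% and retained-intron transcripts 18.8% and 24.8%. The decay class was led by Hnrnpdl-205, at 6.13 and 6.78 TPM, and the coding class by Hnrnpdl-207, at 13.0 and 14.4 TPM. The retained-intron class was led by Hnrnpdl-204, which keeps a 285-base intron and had 3.34 and 7.98 TPM. Within the 10 genes, the mean decay share was highest in Hnrnpa1, followed by Hnrnpd, Hnrnpu and Hnrnpdl.

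Retained-intron shares were lower when taken over estimated counts than over TPM in 8 of 8 genes. How often this order occurs over all expressed genes was not counted. It was reversed in the SR protein gene Srsf5, at 40.3% and 37.8% of TPM against 69.5% and 67.9% of counts. Counts are not divided by length, and the retained-intron transcripts of the hnRNP genes have a lower median length than the coding ones. Whether length accounts for the order was not tested. Hnrnpl and Hnrnpa2b1 remained above 50% in both replicates over TPM in both quantifications and over counts from reads. For the other 6 genes the share of counts was between 0.907% and 28.5%.

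**Figure D5:**
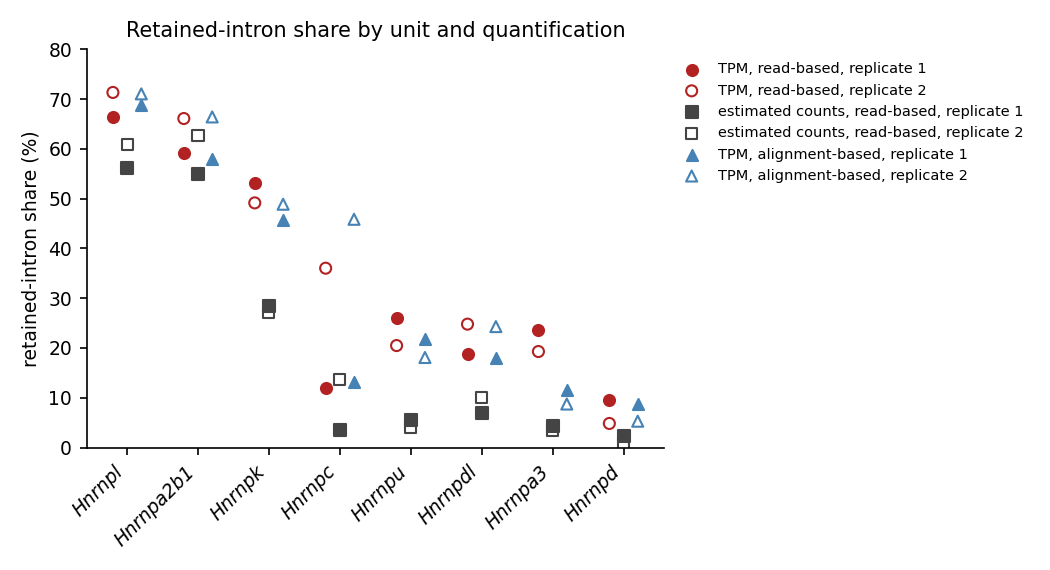
Retained-intron share in percent for the 8 hnRNP genes with such a transcript, over TPM (red circles) and estimated counts (dark squares) from reads and over alignment-based TPM (blue triangles), with replicate 1 filled and replicate 2 open. Hnrnpl and Hnrnpa2b1 lie above 50% in every series, and the share of counts is below the share of TPM for each gene.

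Between the replicates, 0 of the 10 genes differed by more than 1.5-fold after centring, against 18.8% of the 9738 genes. The relative log2 ratios, replicate 2 over replicate 1 at TPM + 0.1, ran from −0.52 for Hnrnpa1 to 0.34 for Hnrnpc with a median of 0.03, and 7 of 10 were above 0. On TMM-scaled counts 4 of 10 lay above the median gene, so the direction of these small differences depended on the unit. The alignment-based ratio of Hnrnpc was 0.67 in TPM, past 1.5-fold. On TMM-scaled counts, not centred, Hnrnpc stood at −0.17 from reads, where the median gene moved by −0.12, and at 0.01 by alignment. The upward difference of Hnrnpc was thus seen in TPM and not in counts. What edgeR names the biological coefficient of variation, from its common dispersion, was 0.308 over 22222 genes from reads. By alignment it was 0.210 over 13510 genes. With 1 donor entry for both replicates, this spread may be technical.

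Other splicing regulators were set beside the 10 genes, whose medians were 57.1 TPM and a retained-intron share of 23.6%. The 19 other hnRNP-type genes had a median of 25.7 TPM. Among the highest were Pcbp2 (108 ± 6.73 TPM) and Hnrnpm (73.3 ± 13.2), and the lowest were Hnrnpa0 (2.55 ± 0.224), Rbmx (3.73 ± 0.514) and Hnrnpr (6.83 ± 1.79; SD, n = 2 for each). Their median retained-intron share was 35.6% over 12 genes, of which 3 had 50% or more in both replicates, among them Hnrnpll (77.0% and 82.2%) and Pcbp2 (55.8% and 55.1%). SR proteins, which mostly promote exon use, had a median of 23.6 TPM over 10 genes and a median share of 42.8% over 8, with Srsf11 highest at 73.2% and 73.1%. CLK kinases, which phosphorylate SR proteins, with TRA2 and RBM regulators had a median of 53.0 TPM and a median share of 55.1% over 12 genes, and Rbm5 was highest at 80.4% and 84.5%. In that list 7 of 12 genes had 50% or more in both replicates, and in the SR list 3 of 8. These lists differ in how many transcripts the annotation gives each gene, and no test of the differences was made.

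The genes whose class shares were most like the mean of the 10 hnRNP genes, among 1129 candidates at 10 TPM or more and by Euclidean distance over 3 classes in 2 replicates, were Azin1 (10.6 percentage points), Thoc2 (11.4), Ndufa3 (11.4), Cpsf7 (11.6) and Supt5 (11.9). The mean shares they were compared with were 44.5% and 41.4% coding, 15.1% and 15.5% decay and 26.9% and 29.2% retained intron.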

How the data were processed

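Total RNA of 2 libraries was measured as transcript abundance. Per the file headers, the authors deposited for each library 2 transcript tables on mm10 with GENCODE M21: 1 made directly from 10 read files and 1 from an alignment to transcripts. The deposited estimated counts, called expected counts in the alignment-based tables, are unnormalized. The deposited TPM values are per effective length and sum to the same total in every table. The deposited interval bounds of TPM (signal) are the authors', at a level that is not given. The sources used here do not name the aligner or quantifier, and whether the libraries kept strand is also not given there.

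Gene levels were sums over transcripts, and class shares were percentages of gene TPM by the annotated transcript type. Between replicates, log2 ratios used TPM + 0.1, centred on the median of protein-coding genes that reached 1 TPM in each library. A transcript ran into an intron if it held 50 or more bases between the coding exons of its gene. The count-based ratios used edgeR 4.0.16 (TMM, prior count 2) and DESeq2 1.42.0 in R 4.3.3 on counts rounded to whole numbers, and the rest used Python 3.11.15 with pandas 2.3.3. Scripts were tested on simulated data. Named were the 10 genes, their highest transcript per class, the 3 highest and 3 lowest of the other hnRNP-type genes, the highest retained-intron shares of each list and the 5 most similar genes. The values of 1 gene under this rule are not reported here. Further transcripts and overlapping genes were chosen after their values were seen. The members and lists were chosen with earlier results of these data known. Alternatives were the other quantification, each library alone, counts, other denominators, filters, scalings and pseudocounts. Depth limits the precision: counts per gene ranged from 1522 to 11296.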

Additional observations from a re-analysis of the deposited data

How the results depend on the processing

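With 2 libraries of 1 group, no result has a test, and values are compared with the spread between replicates. No paired analysis was possible because there is only 1 group. The median level of the 10 hnRNP genes, 57.1 TPM, was 76.7 in the alignment-based quantification, 224 with TPM rescaled to protein-coding genes and 17.3 over protein-coding transcripts only, and 46.2 to 67.1 with 1 replicate left out. The median coding share, 40.6%, was 39.4% by alignment, 59.5% of estimated counts, 51.6% with only the 3 classes in the denominator, 40.3% over transcripts with an effective length of 200 or more, and 41.1% to 41.3% with 1 replicate left out. The median decay share over all 10, 5.17%, was 7.70% of estimated counts. The median retained-intron share over all 10, with absent classes at 0, was 22.5%, and became 20.6% by alignment, 6.70% of estimated counts, 23.8% with only the 3 classes, and 21.2% to 22.6% with 1 replicate left out. It was 31.8% for transcripts of any non-coding class that run into an intron, an alternative chosen after seeing the data, as was adding the TPM of the most similar pseudogenes to Hnrnpa1 and Hnrnpa3, which gave a median level of 64.6 TPM. The count of 2 genes with most TPM on retained-intron transcripts stayed between 2 and 3 under every alternative run, and was 3 without replicate 2, with Hnrnpk added, and 3 for transcripts that run into an intron, with Hnrnph1 added. The median difference between replicates, 0.03 on the log2 scale, was −0.18 with TMM-scaled counts and −0.21 with DESeq2 size factors. On those scales the median gene moved by −0.12 and −0.15, and the hnRNP genes lay −0.06 from it by either. The count beyond 1.5-fold, 0, was 1 (Hnrnpc) in alignment-based TPM. The cause of each change was not tested.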
